A study of Mus musculus with 12 samples.

Results

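The 9 genes described here encode components of the complement system and the receptors for its activation fragments. They were chosen by name, as C1qa, C1qb, C1qc, C3, C4b, Cfb, Cfp, C3ar1 and C5ar1, and each was read from the probe set whose annotation gave only that symbol. Such a probe set was found for 8 of the 9 genes, among 19938 genes with 1 symbol in the table. Each of the 8 had 1 probe set, and C3 was not analysed here.

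Complement is a cascade of proteins that marks surfaces for uptake and recruits leukocytes. The classical pathway starts with C1q, a complex of chains from C1qa, C1qb and C1qc, and runs through C4, which C4b encodes in the mouse. The alternative pathway needs factor B (Cfb), the protease that forms its convertase, and properdin (Cfp), which keeps that convertase from falling apart, and C3ar1 and C5ar1 are the receptors for the fragments C3a and C5a. In the brain, microglia are known as the main source of C1q, where it takes part in the removal of synapses.

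Myeloid cells were flow-sorted from brain and blood of C57BL/6 mice, and RNA of each sorted population was hybridised to 1 Affymetrix Mouse Gene 1.0 ST array, 12 in all. The labels give mice of 7 weeks, and the tumor group had carried GL261 cells, a mouse glioma line, in the brain for 2 weeks. Tumor brains gave microglia (MG, sorted as CD11b+ with low CD45), macrophages (MP, CD11b+ with high CD45), Gr1+ and Gr1- cells, and normal brains gave MG and MP. The blood of tumor-bearing mice gave Gr1+ and Gr1- cells and macrophage populations labelled high and low, and the blood of normal mice gave macrophages labelled high and low. The labels name no genotype beyond the strain, and the number of mice behind an array is not given in the sources used here. A difference between single arrays has no replicate error and was not tested. Differences are given on the log2 scale, where 1 stands for 2-fold, and genes that stood 2-fold or more apart were counted. As a yardstick of noise, the SD of the log2 differences of 1027 olfactory receptor genes, which leukocytes are not known to use, ran from 0.35 to 0.65 over the 10 comparisons. A value was called below background when it lay under the 95th percentile of these receptor genes on its own array, which ran from 8.93 to 10.09, and 11.2% to 39.1% of all genes lay above it.

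The labels were set against cell type markers first. Of 10 microglia markers, 10 lay above background on normal MG, 9 on tumor MG and 10 on each of normal MP, tumor MP and tumor brain Gr1- cells. Neutrophil markers were above background for 9 of 10 on normal MP and border macrophage markers for 7 of 7. Of 8 natural killer (NK) cell markers, 4 were above background on tumor brain Gr1- cells. The blood Gr1- array carried markers of both brain and blood. It had 10 of 10 microglia markers above background but also 4 of 5 B cell markers, of which every brain array had 0, and over all genes it correlated with tumor MP at r = 0.962 (19938 genes of 2 arrays, with no test). The blood Gr1+ array had 4 of 10 microglia markers, 2 of 8 brain parenchyma markers, 7 of 10 neutrophil markers and 1 of 5 B cell markers above background. Tumor brain Gr1+ cells, with which its r was 0.935, had 1 of 10 neutrophil markers above background. All 8 NK cell markers were above background on tumor blood macrophage low and on normal blood macrophage high, while monocyte markers were above background for 7 of 7 on tumor blood macrophage high and 6 of 7 on normal blood macrophage low. The high and low labels therefore did not go with the same NK cell and monocyte markers in tumor-bearing and normal mice. B cell markers were above background for 5 of 5 on tumor high, tumor low and normal low macrophages and 4 of 5 on normal high. Results that use these blood arrays are given with these limits. T cell markers were above background for 2 to 4 of 6 on every array, with Cd4 between 9.26 and 10.23 over the 12 arrays. A value this little above background is therefore weak evidence of expression. In RNA of sorted populations, fewer cells of a type and less RNA per cell cannot be told apart.

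The complement genes divided the arrays into groups. All 8 measured genes were above background on tumor MG, tumor MP, tumor brain Gr1- and blood Gr1- cells, and 7 were on tumor brain Gr1+ cells, blood Gr1+ cells and normal MP. On normal MG 5 of 8 were above background, the missing ones being C4b, Cfb and Cfp. On the blood macrophage arrays 3 were above background for tumor high, 2 for normal low, and 0 for tumor low and normal high. Across the 12 arrays the SD of the log2 values ran from 1.11 for Cfp to 2.71 for C1qb, against a median of 0.39 and a 95th percentile of 1.04 over all 19938 genes.

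**Figure D1:**
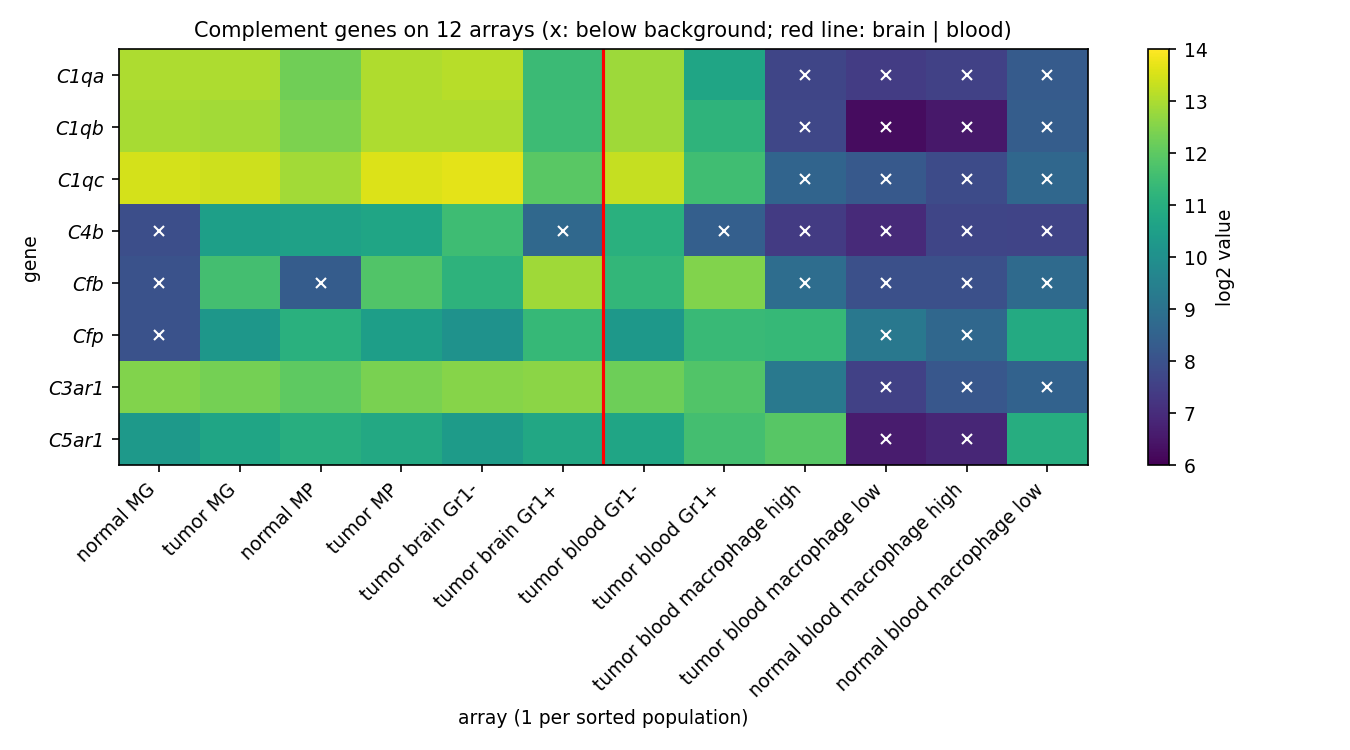
Log2 value (color) of the 8 measured complement genes (rows) on the 12 arrays (columns), with brain arrays left and blood arrays right of the red line. A white x marks a value below background. The C1q chains were bright on all 6 brain arrays and both blood Gr1 arrays, and Cfb was above background on 6 arrays, all from tumor-bearing mice.

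The C1q chains, which form the recognition part of the classical pathway, were bright on all brain arrays and below background on the blood macrophage arrays. C1qa had log2 values of 13.02 on normal MG, 13.01 on tumor MG, 12.28 on normal MP, 13.05 on tumor MP, 13.13 on tumor brain Gr1- and 11.47 on tumor brain Gr1+ cells. On blood arrays it had 12.82 on Gr1- and 10.70 on Gr1+ cells, and 7.67, 7.42, 7.56 and 8.31 on tumor high, tumor low, normal high and normal low macrophages. The 4 blood macrophage values were all below background, and the 6 brain values lay above every one of them. The same split held for the next chain. C1qb had 12.95, 12.88, 12.43, 13.03, 13.03 and 11.48 on the brain arrays in the same order, and 12.87, 11.19, 7.70, 6.28, 6.51 and 8.34 on the blood arrays. C1qc had 13.50, 13.40, 12.88, 13.57, 13.66 and 11.94 on the brain arrays, and 13.31, 11.55, 8.58, 8.24, 7.82 and 8.67 on the blood arrays. All 3 chains thus put the arrays into nearly the same order. Tumor brain Gr1- cells, tumor MP, normal MG and tumor MG lay within 0.13 of each other for C1qa, 0.16 for C1qb and 0.26 for C1qc, less than the spread of the olfactory receptor genes, so their order carries no information. Normal MP lay below them, and tumor brain Gr1+ cells were lowest among brain arrays.

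The 3 chains moved together. Over the 12 arrays r was 0.989 for C1qa with C1qb, 0.997 for C1qa with C1qc and 0.990 for C1qb with C1qc, a description over 12 points that share tissue, sort and processing. On the 8 arrays where all were above background, the difference C1qa minus C1qc had an SD of 0.14, C1qa minus C1qb 0.20 and C1qb minus C1qc 0.085. These SDs were below the lowest noise SD of 0.35 between any pair of arrays compared here.

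The promoters of C1qb and C1qc are shown because these genes moved together and lie beside each other on mouse chromosome 4. Each sequence is the 250 bases before a transcript start listed for the gene in RefSeq on GRCm38.p6, minus strand, written 5′ to 3′, and capitals mark the letters GAGGAA or, read from the other strand, TTCCTC, which resemble the core site of PU.1, a transcription factor of myeloid cells.
C1qb, chr4:136886201-136886450: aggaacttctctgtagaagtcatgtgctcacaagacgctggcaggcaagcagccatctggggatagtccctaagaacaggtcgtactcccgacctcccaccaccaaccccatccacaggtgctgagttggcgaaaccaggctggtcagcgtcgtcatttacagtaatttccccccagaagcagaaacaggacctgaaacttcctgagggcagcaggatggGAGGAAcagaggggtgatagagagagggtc
C1qc, chr4:136892915-136893164: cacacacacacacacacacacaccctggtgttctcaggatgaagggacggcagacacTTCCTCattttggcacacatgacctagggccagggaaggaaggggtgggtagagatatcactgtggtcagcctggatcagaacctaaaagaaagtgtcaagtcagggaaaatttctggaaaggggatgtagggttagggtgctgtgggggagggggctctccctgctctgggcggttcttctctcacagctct
The match lies 30 to 25 bases before the start in C1qb and 193 to 188 bases before it in C1qc. The last 22 bases of the C1qc window lie inside the span that RefSeq lists for the gene, and none of the C1qb window does. Among all 32851 mouse promoter windows of this length in the table, 23.3% hold these letters on either strand, so a match in both genes is only a description. Windows were listed for 5 of the 8 measured genes. The letters GAAANNGAA of an interferon response (ISRE-like) element, present in 7.13% of all windows, were found in C5ar1 66 to 58 bases before the start used, on the opposite strand, within the 202 bases of that window that lie inside the gene's listed span. GGGNNTTCC (NF-kB-like, 4.98% of windows) and TTCNNNGAA (GAS-like, 7.02%) were found in none of the 5, and the windows of Cfp and C3ar1 held none of the 4 motifs. The motifs can overlap, and both strands were searched.

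C4b, the component that C1q activation cleaves, was above background on 5 arrays. It had 7.93 on normal MG, 10.51 on tumor MG, 10.59 on normal MP, 10.72 on tumor MP, 11.53 on tumor brain Gr1- and 8.72 on tumor brain Gr1+ cells. On blood arrays it had 11.09 on Gr1- and 8.42 on Gr1+ cells and between 6.95 and 7.67 on the 4 macrophage arrays. Normal MG and tumor brain Gr1+ cells were thus the brain arrays with C4b below background. On tumor brain Gr1+ cells it lay under the background of 9.01 but just above the 90th percentile of the olfactory receptor genes, 8.70. C4a, its near-identical copy, had 8.51 on normal MG and 9.55 to 10.36 on the 4 brain arrays where C4b was detected, and near-identical copies can share probe signal, so it is uncertain how much of each value belongs to C4b.

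Cfb separated the tumor from the normal brain arrays. It had 8.02 on normal MG and 8.31 on normal MP, both below background, and 11.61 on tumor MG, 11.83 on tumor MP, 11.16 on tumor brain Gr1- and 12.85 on tumor brain Gr1+ cells. On blood arrays it had 11.30 on Gr1- and 12.48 on Gr1+ cells, and 7.94 to 8.85 on the 4 macrophage arrays, all below background. The 4 tumor brain arrays had a mean of 11.86 ± 0.72 (SD over 4 sorted populations, which are not replicates of 1 condition). Their lowest value lay 2.85 above the higher of the normal arrays, and Cfb was the only one of the 8 genes whose 4 tumor and 2 normal brain values stood at least 2-fold apart without overlap. Over all genes 0.747% did so. Monocyte markers did not go with Cfb on every array. Cfb was below background on normal MP, where 6 of 7 monocyte markers were above background, and on tumor blood macrophage high, where 7 of 7 were. On the latter array its value of 8.85 lay just under the background of 9.02 and above the 90th percentile of the olfactory receptor genes, 8.64. Monocyte markers, however, were above background for 5 of 7 on tumor MG and 0 of 7 on normal MG, and their part in the MG difference was not tested.

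**Figure D2:**
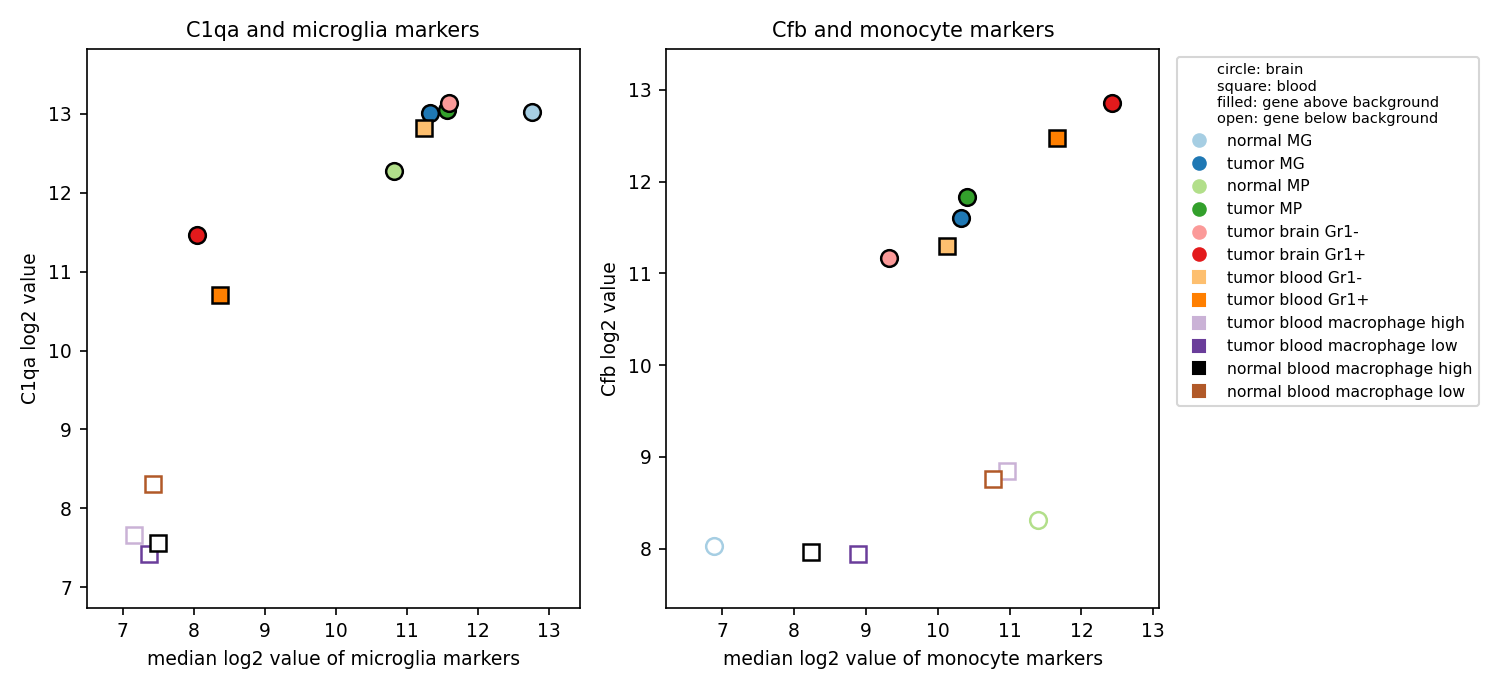
Left, C1qa log2 value against the median log2 value of 10 microglia markers, and right, Cfb log2 value against the median of 7 monocyte markers, with 1 point per array. Cfb was below background on normal MP and just under it on tumor blood macrophage high, where the monocyte marker medians were 11.40 and 10.96. C1qa was 11.47 on tumor brain Gr1+ cells, where the microglia marker median was 8.04 and 4 of 10 lay above background. The cell source of either gene was not tested.

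Cfp encodes properdin, which neutrophils and monocytes are known to make. It had 8.02 on normal MG, 10.23 on tumor MG, 11.08 on normal MP, 10.47 on tumor MP, 10.08 on tumor brain Gr1- and 11.37 on tumor brain Gr1+ cells. On blood arrays it had 10.27 on Gr1- and 11.43 on Gr1+ cells, 11.36 on tumor high, 9.20 on tumor low, 8.67 on normal high and 10.90 on normal low macrophages. The 3 values below background were those of normal MG and of the 2 blood macrophage arrays with 8 of 8 NK cell markers above background. Tumor brain Gr1- cells, with 4 of 8, had Cfp above background. Monocyte markers were above background for 0 of 7 on normal MG, 3 of 7 on tumor low and 0 of 7 on normal high macrophages. The part of these cell types in the Cfp values was not tested.

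Both receptors were above background on all 6 brain arrays. C3ar1 varied little there, with 12.48 on normal MG, 12.33 on tumor MG, 12.002 on normal MP, 12.40 on tumor MP, 12.54 on tumor brain Gr1- and 12.62 on tumor brain Gr1+ cells. It had 12.24 and 11.81 on blood Gr1- and Gr1+ cells, 9.23 on tumor high macrophages, just above background, and 7.54, 8.17 and 8.50 on tumor low, normal high and normal low macrophages. C5ar1 had 10.28 on normal MG, 10.70 on tumor MG, 11.03 on normal MP, 10.82 on tumor MP, 10.38 on tumor brain Gr1- and 10.80 on tumor brain Gr1+ cells. The brain SD was 0.22 for C3ar1 and 0.28 for C5ar1 over 6 populations. On blood arrays the receptors parted. C5ar1 had 11.93 on tumor high and 10.99 on normal low macrophages, where C3ar1 was just above or below background, and 10.71 and 11.61 on blood Gr1- and Gr1+ cells, but 6.60 and 6.87 on tumor low and normal high macrophages. The arrays with bright C5ar1 in macrophage blood sorts had 7 of 10 neutrophil markers above background each, and those with low C5ar1 had 0 of 10. Monocyte markers were above background there for 7 of 7 on tumor high and 6 of 7 on normal low, against 3 of 7 on tumor low and 0 of 7 on normal high. Blood Gr1- cells and normal MG had C5ar1 above background with 0 of 10 neutrophil markers. The part of either cell type in the C5ar1 values was not tested.

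The first question was how MG and MP of tumor brains differed from those of normal brains. Of the 8 complement genes, 3 stood 2-fold or more higher in tumor MG and 0 lower, where 6.05% of all genes were 2-fold apart in either direction. The 3 were C4b, with a log2 difference of 2.58, Cfb with 3.58 and Cfp with 2.21. Each was below background on normal MG, so that the bounds were at least 2.11-fold, 4.51-fold and 1.74-fold higher with background in its place. The C1q chains differed by -0.01, -0.08 and -0.09 and C3ar1 by -0.15, all inside the noise SD of 0.415. C5ar1 differed by 0.411, just inside it. In MP, Cfb alone was 2-fold apart, by 3.52 and at least 6.80-fold, with 5.23% of all genes 2-fold apart. C1qa, C1qb and C1qc were higher in tumor MP by 0.77, 0.60 and 0.69, C3ar1 by 0.40 and C4b by 0.13, while Cfp was lower by 0.60 on the log2 scale and C5ar1 by 0.21. The median over the 8 genes was 0.20 in MG and 0.50 in MP, beside -0.09 and 0.12 over all genes. Neutrophil markers were above background for 9 of 10 on normal MP and 1 of 10 on tumor MP, border macrophage markers for 7 and 2 of 7, and their part in the MP values was not tested.

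**Figure D3:**
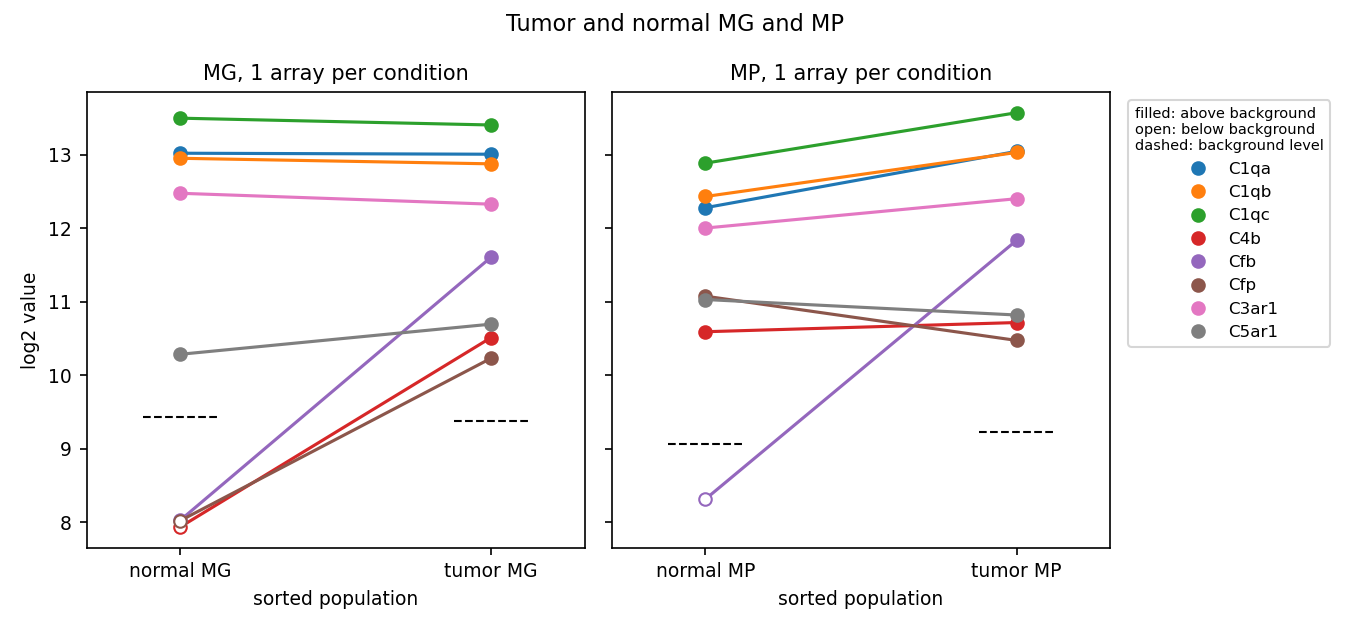
Log2 values of the 8 complement genes on normal and tumor MG (left) and normal and tumor MP (right), with 1 array each. Open circles are below background and dashed lines give the background of each array. Cfb went from below background to 11.61 in MG and 11.83 in MP, while C4b and Cfp did so only in MG.

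The next comparison set MP against MG. In normal brain, C4b was higher in MP by 2.66, at least 2.23-fold, and Cfp by 3.06, at least 3.12-fold. These were 2 of 8 genes, with 7.46% of all genes 2-fold apart. The C1q chains were lower in normal MP by 0.74, 0.52 and 0.61, C3ar1 was lower by 0.47, C5ar1 was higher by 0.75, and Cfb was below background on both. Neutrophil markers were above background for 0 of 10 on normal MG and 9 of 10 on normal MP. Border macrophage markers were so for 1 of 7 and 7 of 7, and monocyte markers for 0 of 7 and 6 of 7. The part of these cell types in the values was not tested. In tumor brain 0 of 8 genes were 2-fold apart between MP and MG, with 0.341% of all genes, and the 8 differences ran from 0.04 to 0.24, inside the noise SD of 0.35. Over all 19938 genes these 2 arrays had r = 0.975.

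Gr1+ cells, a gate used for myeloid-derived suppressor cells, were compared with Gr1- cells. In tumor brain 6 of 8 genes were 2-fold apart, with 7.99% of all genes. C1qa, C1qb and C1qc were 3.18-fold, 2.92-fold and 3.30-fold lower in Gr1+ cells, and C4b was at least 5.72-fold lower. Cfb was 3.23-fold and Cfp 2.44-fold higher in Gr1+ cells. The C1q chains and C4b of the classical pathway thus went the opposite way from Cfb and Cfp, the only 2 alternative pathway genes measured. C3ar1 and C5ar1 differed by 0.08 and 0.42. Microglia markers were above background for 4 of 10 on Gr1+ and 10 of 10 on Gr1- cells, monocyte markers for 7 and 4 of 7, and NK cell markers for 0 and 4 of 8, and their part was not tested. On the blood Gr1 arrays 6 of 8 genes were again 2-fold apart, with 7.51% of all genes. The C1q chains differed by -2.11, -1.68 and -1.76, C4b by -2.66, at least 3.98-fold lower, Cfb by 1.17, Cfp by 1.16, C3ar1 by -0.42 and C5ar1 by 0.90. Between these blood arrays, neutrophil markers were above background for 7 of 10 on Gr1+ and 0 of 10 on Gr1- cells, B cell markers for 1 and 4 of 5, and microglia markers for 4 and 10 of 10, and their part was not tested. Tumor brain against blood Gr1+ cells had 0 of 8 genes 2-fold apart, with 3.99% of all genes. The largest differences were 0.81 for C3ar1 and -0.81 for C5ar1, and C4b was below background on both. Neutrophil markers were above background for 1 of 10 on the brain and 7 of 10 on the blood array, and their part in the C5ar1 value was not tested.

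Blood macrophages of tumor-bearing and normal mice were compared under the labels high and low, which the markers went against. For high macrophages 4 of 8 genes were 2-fold higher in tumor-bearing mice, while 50.6% of all genes and 58.2% of the olfactory receptor genes were 2-fold apart, so the count is no more than background. C5ar1 was higher by 5.06, at least 3.58-fold, and Cfp by 2.68, at least 2.41-fold. C3ar1 had a difference of 1.06 that turned to -0.86 with background in place of lower values and to -0.11 under cyclic loess normalization, and C1q, C4b and Cfb were below background on both. For low macrophages 3 of 8 genes were 2-fold lower, namely C1qb, Cfp and C5ar1, with 9.35% of all genes. C5ar1 was at least 3.34-fold lower and Cfp at least 3.14-fold lower. C1qb and the other 5 genes lay under background on each of the 2 arrays, so no fold is given for them. Tumor MP against tumor blood macrophage high had 7 of 8 genes 2-fold apart, with 14.8% of all genes. Microglia markers were above background for 10 of 10 on tumor MP and 2 of 10 on tumor high. Neutrophil markers were so for 1 and 7 of 10 and B cell markers for 0 and 5 of 5, and their part was not tested. The C1q chains were at least 16.3-fold, 16.1-fold and 23.5-fold higher in tumor MP, C3ar1 was 9.02-fold, Cfb at least 7.04-fold and C4b at least 3.25-fold higher, whereas C5ar1 was 2.16-fold lower and Cfp differed by -0.88.

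Brain against blood was the only comparison with several arrays a side, 6 against 6. Its error is the spread among unlike sorted populations, not among mice. C1qa was higher in brain by 3.58 ± 0.77 (SE), C1qb by 3.82 ± 0.91, C1qc by 3.47 ± 0.78, C3ar1 by 2.81 ± 0.67 and C4b by 1.81 ± 0.69, each with an adjusted p of 0.179 in limma, except C4b with 0.328. C5ar1 (0.88), Cfb (1.09) and Cfp (-0.10) had adjusted p-values from 0.830 to 0.967 in limma. By limma 0 of 8 genes passed an adjusted p of 0.05, and 0.0351% of all genes did, while 5 of 8 had an unadjusted p under 0.05. Without the blood Gr1- array, 5 of 8 genes passed in limma, with C1qa higher by 4.33 (adjusted p = 0.0032), C1qb by 4.63 (0.0055), C1qc by 4.19 (0.0043), C3ar1 by 3.34 (0.0098) and C4b by 2.39 (0.0295). Over all genes 2.92% passed in that fit. The array left out held the highest blood value of each of these 5 genes, so their passing without it is no separate support. Leaving out the normal blood macrophage high array instead, 0 of 8 genes passed in limma. With the array kept and values below background raised to it, C1qa, C1qb, C1qc and C3ar1 passed in limma, as did 2.81% of all genes. Only 2 of the 6 blood values of each C1q chain and 3 of 6 of C3ar1 lay above background. The floor thus narrowed their spread in blood, so their passing with it is no separate support.

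Beyond the 8 genes, lists of complement genes held 37 others that were measured. The terminal pathway, which forms the membrane pore, had 0 of 7 genes above background on any array. The proteases C1ra and C1s1, which act with C1q, and C2, the classical counterpart of factor B, were below background on all 12 arrays. In the lectin pathway Fcna (10 arrays) and Colec11 (12 arrays) were above background, but they ran only from 9.08 to 10.35 and from 9.21 to 10.24. The T cell marker Cd4 had much the same range, so these calls are weak evidence of expression. Among receptors for C3 fragments, those of the integrin family were widely detected, with Itgam (CD11b, a sort marker) above background on 11 arrays, Itgax on 11 and Itgb2 on 12. C5ar2, the other receptor for C5a, was above background on 7 arrays, with 10.09 on normal MG and 10.24 on tumor blood macrophage high as its brightest values. Cr2 (complement receptor 2, known from B cells) was above background on 1 array, and Vsig4, a receptor for C3 fragments on tissue macrophages, was on none.

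In MG 3 of these 37 genes were 2-fold higher in tumor and 3 lower, beside 2.44% higher and 3.61% lower over all genes. The brighter array was above background only for Itgax, Clu and C4a. Itgax, the alpha chain of complement receptor 4, was below background on normal MG (8.71) and 11.42 on tumor MG, at least 3.95-fold higher. Clu, encoding clusterin, an inhibitor of the terminal complex, was at 10.47 on normal MG and below background on tumor MG, at least 2.14-fold lower, and in MP it was at least 3.29-fold lower in tumor. In MP 0 of 37 were higher and 3 lower, beside 1.65% and 3.58% of all genes. Brain parenchyma markers were above background for 4 of 8 on normal MG, 4 of 8 on normal MP, 2 of 8 on tumor MG and 2 of 8 on tumor MP, and their part in the Clu values was not tested. Cd93, a surface protein named as a C1q receptor, was 10.57 on tumor brain Gr1+ and below background on Gr1- cells, at least 3.11-fold apart. Cd55, which takes apart complement convertases, was above background on 5 blood arrays and on 0 brain arrays, with 11.50 on tumor low, 10.92 on normal high, 9.50 on tumor high and 9.48 on normal low macrophages and 9.17 on Gr1- cells. Its highest values were on tumor low and normal high, the arrays with 8 of 8 NK cell markers. These 2 arrays also had 5 of 5 and 4 of 5 B cell markers above background, and the part of either cell type was not tested.

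**Figure D4:**
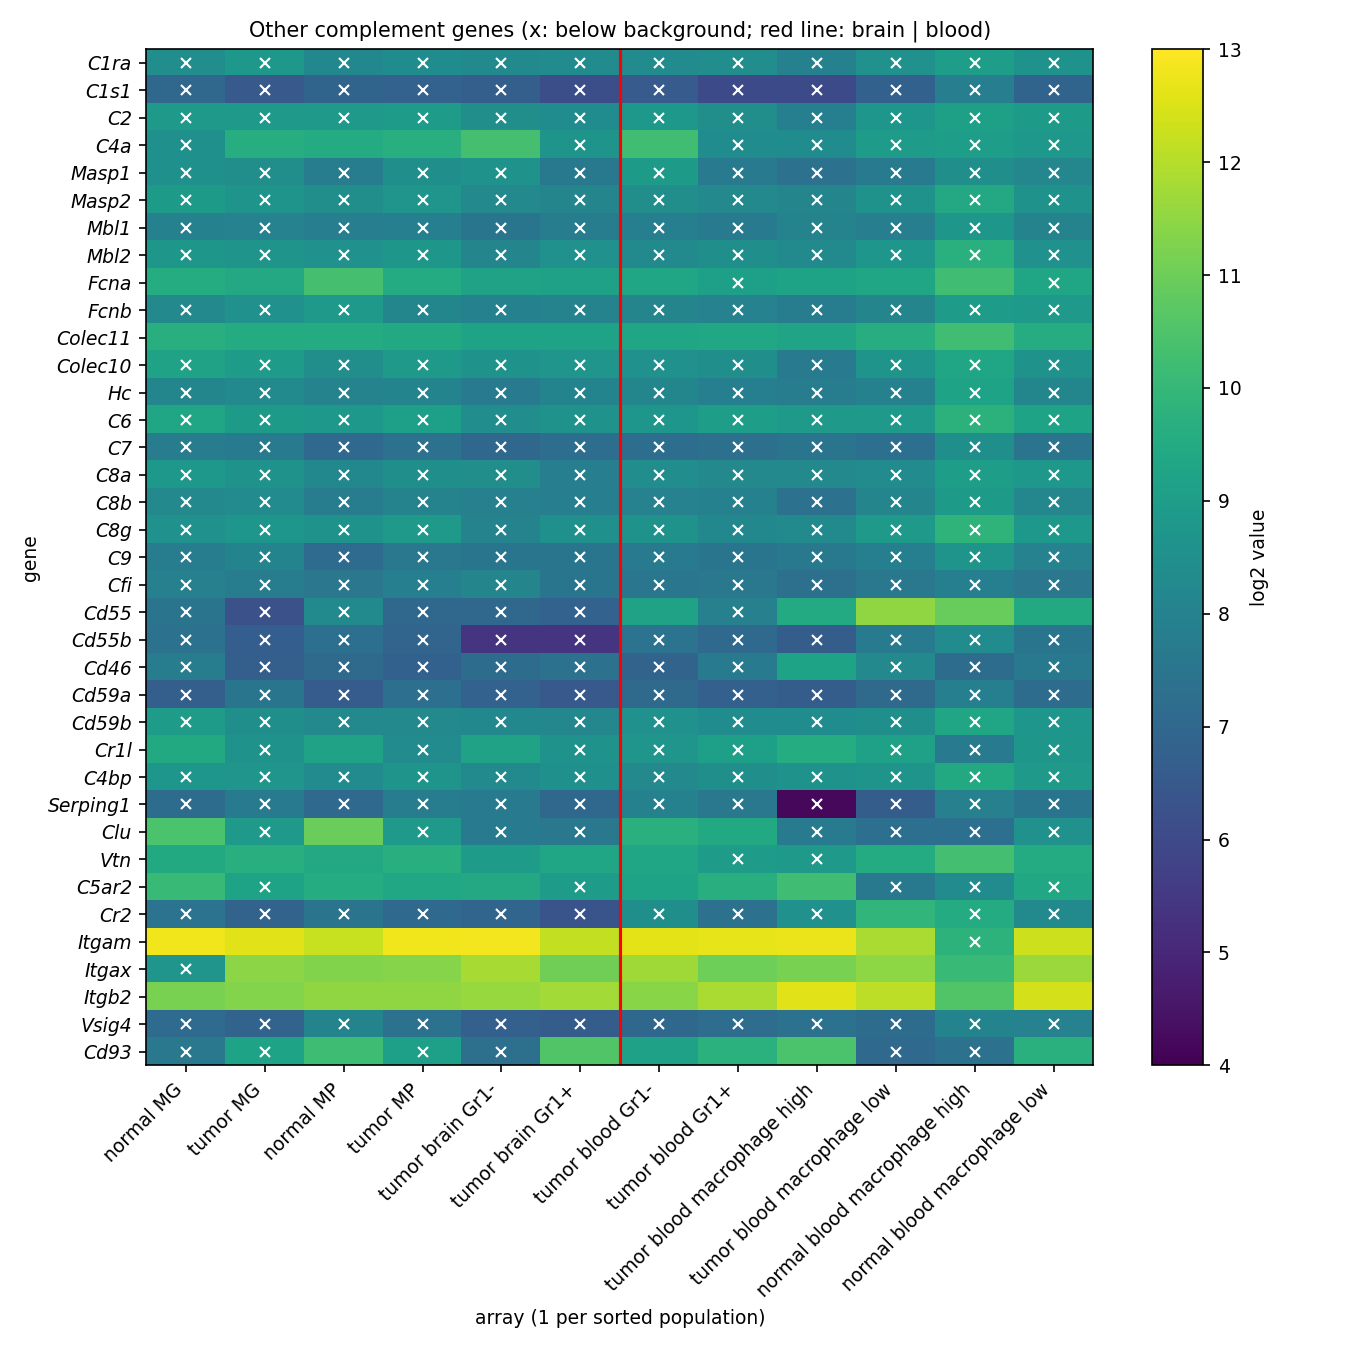
Log2 value (color) of 37 other complement genes (rows) on the 12 arrays (columns), with a white x for values below background and brain arrays left of the red line. Most rows are marked below background throughout, and Itgam, Itgax and Itgb2 are the bright rows.

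Among 7569 genes above background on at least 4 arrays, those whose values most resembled each complement gene were found by Pearson's r over the 12 arrays, as a description. For C1qa these were Mertk (0.993), Slc29a3 (0.988) and Rab3il1 (0.988). For C1qb they were Slc29a3 (0.986), Slc7a8 (0.985) and Nek6 (0.985), and for C1qc Slc29a3 (0.992), Mertk (0.990) and Frmd4b (0.988). Slc29a3 thus appeared for all 3 chains. Cfb stood with Cxcl10 (0.992), Gm12250 (0.982) and Gbp5 (0.978), and C4b with Tpx2 (0.944), Top2a (0.939) and Cpq (0.914). Cfp stood with Plbd1 (0.985), Gsn (0.976) and Lgals3 (0.971), C3ar1 with Adap2 (0.987), Gatm (0.984) and Slc7a8 (0.981), and C5ar1 with Hlx (0.983), Nlrp3 (0.982) and Rab32 (0.981). Among the 8 genes themselves, C1qa had r = 0.952 with C3ar1 and 0.018 with Cfp, and Cfp had 0.694 with C5ar1. Over the 6 brain arrays alone C1qa and C3ar1 had r = -0.06. Both genes had their lowest values on the 4 blood macrophage arrays, below the other 8.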

How the data were processed

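RNA of flow-sorted mouse cells was amplified in 2 cycles and hybridised to 12 Affymetrix Mouse Gene 1.0 ST arrays, 1 per population. The authors deposited 1 table of log2 values, and the submitters' processing notes name RMA, a method of background correction, normalization and summary. Its settings, and the annotation release and genome build behind the probe sets, are not given in the sources used here. All value columns were mapped to samples (0 unmapped).

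The table holds 28944 probe sets, of which 21789 carry 1 gene symbol, and the brightest per gene left 19938 genes. Values were used as deposited. Background was the 95th percentile of 1027 Olfr genes on each array, and a bound ("at least") puts it in place of lower values. Array number and background limit the precision. Pairs of single arrays were subtracted without a test, and brain was set against blood with limma 3.58.1 (lmFit, eBayes, Benjamini-Hochberg over all genes) in R 4.3.3. The code was run on simulated data with independent noise smaller than the spread of the complement genes. That run cannot show how the fit behaves on these unlike populations. Python 3.11.15 with pandas 2.3.3 and numpy 2.4.6 was used, with matplotlib 3.10.9 for figures. Promoters came from RefSeq (GRCm38.p6). The complement genes, the marker and complement lists and the tests were chosen with earlier results of these data known. Named genes were the 9 chosen, the 3 genes most like each, up to 4 others of the complement lists per comparison by difference, and C1ra, C1s1, C2, Fcna, Colec11, C5ar2, Cr2 and Vsig4, chosen after their values were seen. The alternatives tried were centring each array on its median, cyclic loess, quantile normalization, averaging a gene's probe sets, floors at background, other fold limits, leaving out blood arrays and other settings of limma.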

Additional observations from a re-analysis of the deposited data

Results flagged for a closer look

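C4b was 11.09 on the tumor blood Gr1- array and 6.95 to 8.42 on the other 5 blood arrays. The gap was 0.644 of the whole range, beyond the limit for 6 samples, and chance passes this limit in about 1 of 20 groups, of which 16 were examined. That array also had 10 of 10 microglia markers and 4 of 5 B cell markers above background.

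Cfp differed in opposite directions between tumor and normal brain, by 2.21 in MG and -0.60 in MP. The difference between these values was not tested, since each condition had 1 array. On normal MG Cfp was below background.

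In blood macrophages, tumor minus normal had opposite signs under the labels high and low, again untested. The values were 5.06 and -4.39 for C5ar1, 2.68 and -1.70 for Cfp, 1.18 and -2.07 for C1qb, 1.06 and -0.96 for C3ar1 and 0.89 and -0.81 for Cfb. C1qb and Cfb were below background on all 4 arrays. The tumor high and normal low arrays had 7 and 6 of 7 monocyte markers above background, and the tumor low and normal high arrays had 8 of 8 NK cell markers.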

How the results depend on the processing

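Under the alternatives 86 recomputed counts stayed within 1.5 times the reported count and 11 did not. Of the single-gene values, 497 kept their direction and side of the limit or moved less than the noise SD, 50 moved more, 14 newly passed a limit and 7 turned. Between 2 arrays a turn was counted only where the reported difference was at least 2-fold. Smaller differences that changed sign are among the other counts. At a 1.5-fold limit the number of complement genes apart rose to 5 in MP of tumor against normal brain (17.2% of all genes), to 5 between both normal brain sorts (23.9%), to 3 for tumor brain against blood Gr1+ cells (14.0%) and to 7 for blood macrophage low (22.6%). At 4-fold it was 1 for tumor brain Gr1+ against Gr1- (1.68% of all genes), 2 for blood Gr1+ against Gr1- (1.19%) and 2 for blood macrophage high (7.13%). Blood macrophage high gave 7 with a floor at background (73.9%). There, C1qb turned to -1.07 with that floor and -1.12 with a floor at the 90th percentile, and C3ar1 to -0.86, -0.53 and, under cyclic loess, -0.11. C1qa, C1qc and Cfb, with reported differences of 0.11, 0.76 and 0.89, also went to -1.07 with the floor at background. In the fit of brain against blood 4 genes were called with the floor (2.81% of all genes), 5 without the blood Gr1- array (2.92%) and 5 without both blood Gr1 arrays (4.79%, against 0.0351% as deposited), an alternative chosen after seeing the data. Both fits without blood Gr1 arrays leave out the highest blood value of the C1q chains, C3ar1 and C4b, and the other alternatives called 0 of 8. The floor raised the low blood values of the 4 genes it called and narrowed their spread, so those calls are no separate support. C5ar1 turned to -0.10 with the floor, and Cfp to 0.17 without both blood Gr1 arrays. Apart from the floor, which sets values below background to that level, and the changed limits and samples, the cause was not tested. The 4 tumor and 2 normal brain arrays left Cfb as the one separated gene under each alternative run. No paired analysis was possible because each condition had 1 array. With 1 array each, values below background have no order.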
